A study of Mus musculus with 6 samples.

Results

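Chemoattractant receptors of macrophages were followed in RAW264.7 cells, a transformed mouse macrophage line, as 9 genes chosen by name from the 54532 genes of the count table: Ccr1, Ccr2, Cx3cr1, Cxcr4, Ackr3, Fpr1, Fpr2, Cmklr1 and Ccrl2. All 9 were found. The cocultured group held RAW264.7 cells kept for 48 h with TTJ cells, which are Tsc2-null and came from an angiomyolipoma, a kidney tumour, of a mouse model of tuberous sclerosis complex. The lone group held RAW264.7 cells with no listed treatment. The macrophages of both groups carry the label WT and were collected by fluorescence-activated sorting, and each group had 3 libraries, replicates A, B and C. The line stands for macrophages here and is not a primary cell, and the labels do not state that A, B and C came from separate cultures. The p-values therefore reflect the spread among libraries, which could be technical only. Total counts ran from 14329487 to 16976782 in coculture and from 14621832 to 17358280 alone.

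Chemoattractant receptors are G protein-coupled receptors and their relatives that read gradients of chemokines, formylated peptides, lipids or chemerin. Most of them couple to inhibitory G proteins and steer leukocyte migration through phosphoinositide 3-kinase and Rac. In monocytes and macrophages, CCR2 serves recruitment from blood, CCR1 responds to several inflammatory CC chemokines, and CX3CR1 binds fractalkine and marks patrolling monocytes and many tissue macrophages. A smaller group, with ACKR3 and CCRL2, binds ligand without classical G protein signalling and scavenges it or presents it to other receptors.

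The receptors did not move as 1 block. In coculture, the mRNA of Cx3cr1, by far the most abundant of the 9, fell by a small amount, while Ccr1 rose 3.40-fold. Ccrl2 rose 1.43-fold, a call that was lost in 5 of 17 alternative fits. Cxcr4 and Fpr2, both close to the detection limit alone, also rose. Ccr2 did not pass the test, and Ackr3, Fpr1 and Cmklr1 were too low for it. Of the 9 genes, 6 passed the filter on low counts, which asks for 0.618 CPM (counts scaled to library size) in at least 3 libraries. Of these 6, 4 were called higher and 1 lower in coculture by edgeR's quasi-likelihood test (Benjamini-Hochberg adjusted p under 0.05), where 21.7% of the 12972 genes tested were higher and 15.2% lower. Cxcr4 and Fpr2 reached the minimum in coculture alone, which left them one possible direction, so their calls are no support for a shift of the receptors as a group. Among the 4 receptors that met the same minimum in all lone libraries, 2 (Ccr1 and Ccrl2) were higher and 1 lower. Of the 11574 such genes 16.8% were higher and 17.1% lower. The median log2 change of these 4 receptors was 0.42, and that of all such genes was -0.02.

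**Figure D1:**
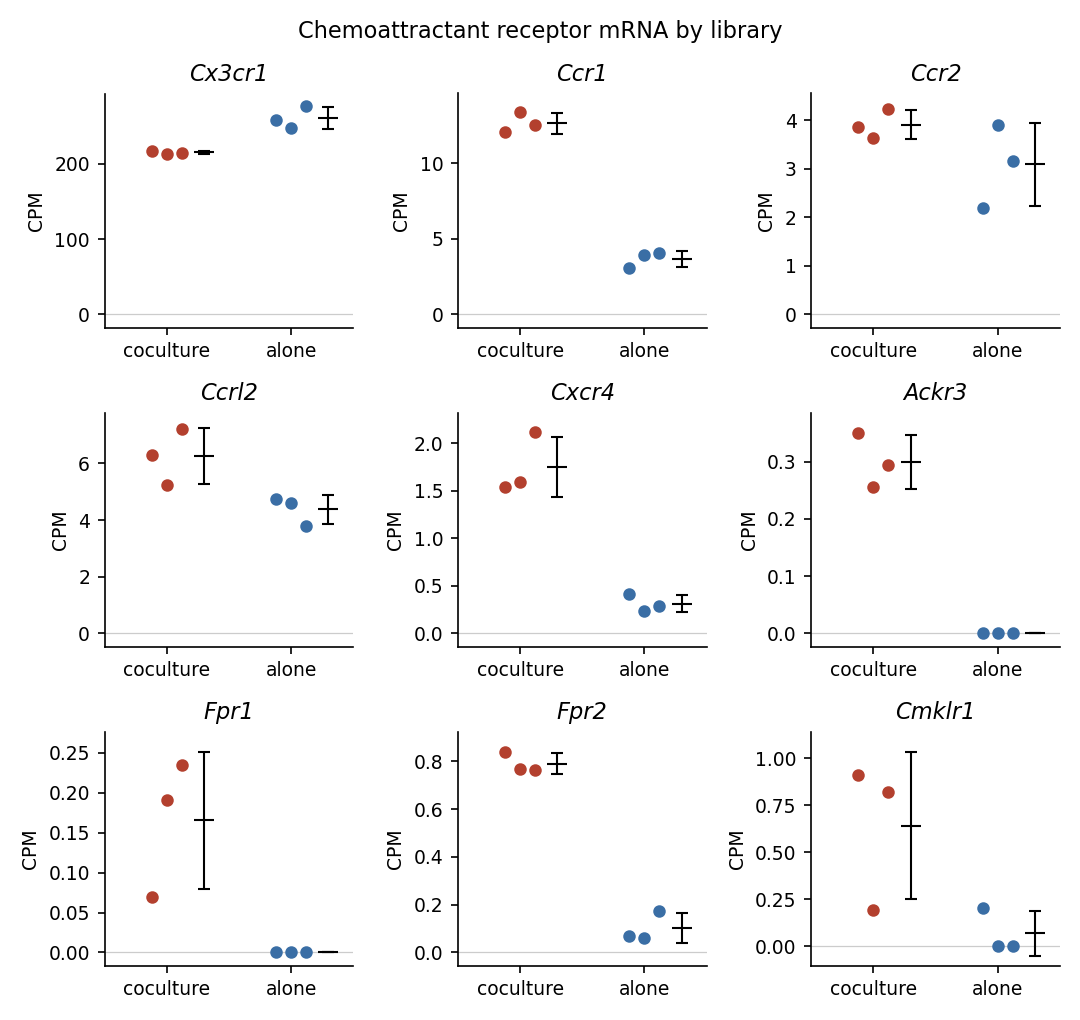
CPM (TMM-scaled counts) of each receptor in the 3 cocultured and 3 lone libraries, 1 point per library, with the mean and SD of each group as black bars and a separate linear axis for each gene. Coculture and lone values overlap for Ccr2 and Cmklr1. The points of Ackr3 and Fpr1, which were not tested, rest on at most 5 counts per cocultured library and on none alone.

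The labelled cell type was checked against markers before the receptors were compared. The 9 macrophage markers summed to 10828 to 11084 CPM in coculture and 10229 to 10310.3 CPM alone, and Csf1r, the receptor for macrophage colony-stimulating factor, averaged 2016 ± 23.9 CPM in coculture and 1928 ± 64.6 CPM alone (SD, n = 3 each). Mertk, with 53 counts in coculture, was the one marker of the 9 with no count in lone cells. Renal and simple epithelial markers summed to 284 to 328 CPM in coculture and 0 to 0.0600 CPM alone. Of these 11 genes 9 had no count alone, and Epcam and Lhx1 had none in any library. Mesenchymal markers summed to 59.3 to 63.8 CPM in coculture and 1.79 to 1.93 CPM alone, with Col3a1 at 0 in every library. Most of the cocultured sum came from Col5a1, Timp3 and Cav1 (means of 25.6, 17.9 and 15.2 CPM). Tagln and Pdgfrb averaged no higher in coculture, Acta2 did not pass the test, and Col1a1 and Col1a2 had 3 and 1 counts over the cocultured libraries. The part that RNA of other cells plays in the receptor values was not tested. In these bulk libraries, fewer cells of a type and less RNA per cell cannot be told apart.

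Ccr1, a receptor for CCL3, CCL5, CCL7 and related CC chemokines, had the largest log2 change among the 4 receptors that met the count minimum in lone cells. It had 172, 210 and 213 counts in cocultured replicates A, B and C and 45, 65 and 71 counts in the lone ones. Scaled to depth this was 12.0, 13.4 and 12.5 CPM in coculture and 3.09, 3.90 and 4.09 CPM alone. Every cocultured library lay far above every lone library. The log2 change was 1.77 (SE 0.154, 95% interval 1.45 to 2.09, edgeR adjusted p = 7.41e-10). The gene is ENSMUSG00000025804 on mm10 chromosome 9, 123962124 to 123968692, minus strand, with 2 exons and its whole coding sequence in 1 of them.

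Ccr2, the receptor for CCL2 and a guide of monocyte recruitment, lies on the same chromosome at 124101950 to 124113557, plus strand. It had 55, 57 and 72 counts in coculture and 32, 65 and 55 counts alone, or 3.85, 3.64 and 4.23 CPM against 2.20, 3.90 and 3.17 CPM. The groups overlapped, because lone replicate B lay within the cocultured values, and lone replicate A was the lowest library. The log2 change was 0.33 (95% interval -0.14 to 0.80, edgeR adjusted p = 0.282), so these libraries did not show a difference, and a rise of up to 0.80 on the log2 scale lies within the interval. Per length, the ratio of Ccr1 to Ccr2 was 7.46, 8.79 and 7.06 in cocultured replicates A, B and C and 3.36, 2.39 and 3.08 in lone ones, without overlap. An exact permutation test of 3 libraries against 3 cannot go below p = 0.1 on such a ratio, and none was run.

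Ccr1 and Ccr2 sit in a cluster of chemokine receptor genes. From 300 kb before Ccr1 to 300 kb past Ccr2 the table lists 11 protein-coding genes, of which 5 were tested. Ccr1 was the only one past the threshold, where 21.7% of all genes tested were higher, so this count lies near the background. Of the relatives of Ccr1 and Ccr2 in the cluster, Ccr1l1 had no count in any library. Ccr3 had 11 counts over the cocultured and 5 over the lone libraries. The unrelated neighbours Lztfl1 and Fyco1 had log2 changes of -0.06 each, with edgeR adjusted p of 0.806 and 0.647. The remaining tested neighbour, 2010315B03Rik, had a log2 change of 0.31 (edgeR adjusted p = 0.153), and its groups did not overlap. The coding sequence of Ccr1 was 76.9% identical to that of Ccr1l1. No stretch of 50 bases of the Ccr1 transcript occurred in a transcript of another gene, and 1.91% of such stretches of Ccr2 did.

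Cx3cr1, the fractalkine receptor, had 3099, 3350 and 3655 counts in cocultured replicates A, B and C and 3749, 4127 and 4798 counts in the lone ones. This was 217, 214 and 215 CPM in coculture and 258, 247 and 276 CPM alone. All cocultured libraries were lower than all lone ones, and the cocultured values lay closer together. The log2 change was -0.28 (SE 0.0456, 95% interval -0.37 to -0.18, edgeR adjusted p = 2.36e-05), a level 1.21-fold lower in coculture. The gene, ENSMUSG00000052336, spans chromosome 9 from 119901616 to 120069879 on the minus strand. Its exons share 78 bases with Gm33858, an antisense gene with 12 counts over the cocultured and 39 over the lone libraries. Over the same libraries Cx3cr1 had 10104 and 12674 counts. Of the 9 macrophage markers 5 rose, Mertk among them with its direction fixed by the filter, and 2, Cd68 and Spi1, fell, where 21.7% of all genes tested rose and 15.2% fell. Adgre1, which encodes F4/80, averaged 86.8 ± 4.27 CPM in coculture and 73.2 ± 1.66 CPM alone (edgeR adjusted p = 0.000801).

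Cxcr4, the receptor for CXCL12 that retains leukocytes in bone marrow, and Ackr3, the atypical receptor that removes CXCL12, are both on chromosome 1. Cxcr4 (ENSMUSG00000045382, 128588199 to 128592293, minus strand) had 22, 25 and 36 counts in coculture and 6, 4 and 5 counts alone. These were 1.54, 1.60 and 2.12 CPM in coculture and 0.413, 0.240 and 0.288 CPM alone. The groups were well apart, at 5.57-fold (log2 2.48, SE 0.421, 95% interval 1.61 to 3.35, edgeR adjusted p = 3.47e-05). On log2(FPKM + 1), a scale that compresses low genes, the change was 0.74. Ackr3 (ENSMUSG00000044337, 90203980 to 90216751, plus strand) had 5, 4 and 5 counts in coculture, or 0.350, 0.255 and 0.294 CPM, and no count in any lone library, against which a group total of 3 counts allows at least a 4.83-fold rise. Bound and counts both cover counting error only.

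The 250 bases upstream of the RefSeq start site (GRCm38.p6, the assembly of mm10) are shown for Cx3cr1, Ccr1 and Cxcr4. Cx3cr1 is the most abundant receptor, and Ccr1 and Cxcr4 were the rises of lowest edgeR adjusted p. The direction of Cxcr4 was fixed by the filter. Capitals mark matches to TATAAA on either strand, and among these windows they occur in that of Cxcr4:
Ccr1 (chr9:123968693-123968942, minus strand): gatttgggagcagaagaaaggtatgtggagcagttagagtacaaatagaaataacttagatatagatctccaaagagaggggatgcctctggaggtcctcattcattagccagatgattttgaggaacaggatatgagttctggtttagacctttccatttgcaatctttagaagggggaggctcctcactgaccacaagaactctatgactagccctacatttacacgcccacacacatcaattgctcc
Cxcr4 (chr1:128592300-128592549, minus strand): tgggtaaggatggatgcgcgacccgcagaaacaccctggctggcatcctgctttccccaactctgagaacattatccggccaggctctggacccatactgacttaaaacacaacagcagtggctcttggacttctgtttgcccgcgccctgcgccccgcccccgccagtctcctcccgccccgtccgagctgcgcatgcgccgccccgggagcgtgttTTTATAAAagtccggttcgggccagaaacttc
Cx3cr1 (chr9:120068297-120068546, minus strand): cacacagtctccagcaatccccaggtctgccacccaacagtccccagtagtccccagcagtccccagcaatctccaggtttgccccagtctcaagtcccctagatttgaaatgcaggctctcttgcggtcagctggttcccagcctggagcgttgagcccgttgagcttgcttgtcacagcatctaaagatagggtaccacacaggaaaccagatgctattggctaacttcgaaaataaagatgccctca
Of these, Cxcr4 carried TATAAA with its first base 30 bases before the start site, where a TATA box would stand. Over all 9 receptors, whose 11 windows include 3 of Ccrl2, TATAAA occurred for 4 genes (Cxcr4, Ackr3, Fpr1 and Fpr2), against 12.4% of the 32851 windows in the RefSeq table. For Ackr3, Fpr1 and Fpr2 the match began 8, 227 and 130 bases before the start site, away from the place of a TATA box. The letters GAGGAAGT of PU.1 and TGANTCA of AP-1, searched on both strands, occurred in none of the 11 windows, and in 2.44% and 6.75% of all windows. The interferon response core GAAANNGAA was found for Ccr2 only (7.13% of all windows), and the hypoxia core ACGTG for Cmklr1 and Ccrl2 (16.6%). The motifs describe these letters and name no bound factor.

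**Figure D2:**
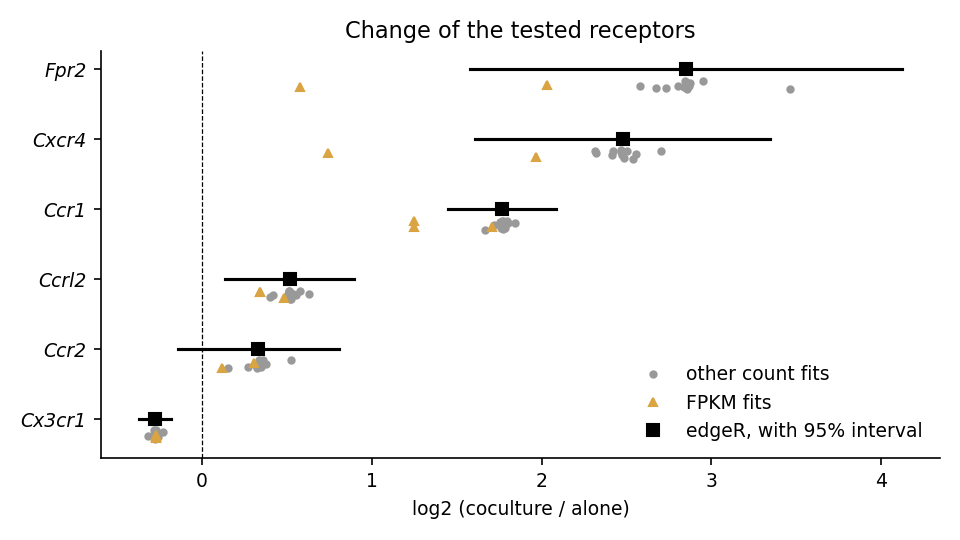
Log2 change in coculture over alone for the 6 tested receptors. Black squares and lines are the edgeR estimates with 95% intervals, grey points are other fits of the counts and orange triangles fits of log2 FPKM. Only Cx3cr1 lies below 0, the interval of Ccr2 crosses 0, and the pseudocount of the FPKM fits draws Cxcr4 and Fpr2 toward 0.

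Fpr1 and Fpr2 encode receptors for formylated peptides from bacteria and mitochondria, and FPR2 also binds annexin A1 and serum amyloid A. They lie next to each other on chromosome 17 on opposite strands. Fpr2 (ENSMUSG00000052270, 17887824 to 17893952) had 12, 12 and 13 counts in coculture and 1, 1 and 3 counts alone, or 0.840, 0.766 and 0.764 CPM against 0.0688, 0.0600 and 0.173 CPM. The groups did not overlap, and the log2 change was 2.85 (SE 0.616, 95% interval 1.58 to 4.12, edgeR adjusted p = 0.000601). It became 3.47 without lone replicate C, which held 3 of the 5 lone counts, and 0.58 on log2(FPKM + 1). Fpr1 (ENSMUSG00000045551, 17876471 to 17883940) had 1, 3 and 4 counts in coculture and none alone, a bound of at least 2.76-fold from 3 counts over the lone group.

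Reads of Fpr2 are less certain than those of the other receptors. The coding sequence was 88.1% identical to that of Fpr3, with which it shares 48 exon bases, and 31.5% of its 50-base stretches occurred in other genes' transcripts. Fpr3 itself had no count in any library, nor had Fpr-rs3, Fpr-rs4, Fpr-rs6 and Fpr-rs7. Within 300 kb of the pair the other tested gene was Spaca6, a sperm membrane protein gene, with 321 counts over the cocultured and 180 over the lone libraries (log2 0.88, edgeR adjusted p = 0.000695). Formyl peptide receptors are abundant in neutrophils, whose markers summed to 3.08 to 4.72 CPM in coculture and 5.19 to 7.98 CPM alone. Most of that sum was Csf3r (3.32 CPM in coculture and 6.15 CPM alone). S100a8 went the other way, at 0.469 CPM in coculture and 0.254 CPM alone. S100a9, Elane and Mpo had 1, 2 and 1 counts over the cocultured libraries and none alone, and Ly6g was at 0 in every library. The part of neutrophil RNA was not tested.

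Cmklr1 and Ccrl2 both bind chemerin: CMKLR1 signals, and CCRL2 holds the protein at the cell surface. Ccrl2 (ENSMUSG00000043953, chromosome 9, 111054486 to 111057519) had 90, 82 and 123 counts in coculture and 69, 77 and 66 counts alone, or 6.30, 5.23 and 7.23 CPM against 4.75, 4.62 and 3.80 CPM. The lowest cocultured library was only a little above the highest lone one. The log2 change was 0.52 (SE 0.184, 95% interval 0.14 to 0.90, edgeR adjusted p = 0.0297). The call was lost without cocultured replicate A (adjusted p = 0.0733), cocultured replicate C (0.154) or lone replicate C (0.113) in edgeR, and in the DESeq2 Wald test (adjusted p = 0.0552). Over all alternatives the adjusted p ran from 0.0162 to 0.154. Cmklr1 (ENSMUSG00000042190, chromosome 5, 113612354 to 113650426) had 13, 3 and 14 counts in coculture and 3, 0 and 0 counts alone. Cocultured replicate B and lone replicate A were at the same low count, so the groups overlapped, and the ratio of summed counts was 10.3 (exact 95% interval 3.22 to 53.0, for counting error). Cmklr1 passed the filter and was called higher in 4 of the 6 fits that left out a library. The library left out was cocultured replicate B, its low one, or lone replicate A, B or C. In these fits it met the minimum only through cocultured libraries, which left 1 possible direction, so the calls are no support for a rise. Without the filter on low counts, edgeR gave adjusted p of 0.00294 for Cmklr1, 0.0136 for Ackr3 and 0.0909 for Fpr1.

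Levels between genes were compared in FPKM, the deposited values scaled to gene length and library size. Cx3cr1 stood at 47.7 ± 0.312 FPKM in coculture and 57.7 ± 3.30 FPKM alone, rank 1043 in coculture and rank 848 alone among 22046 protein-coding genes. In coculture the order below it was Ccr1 (4.46 ± 0.249 FPKM), Ccrl2 (2.40 ± 0.381), Cxcr4 (0.967 ± 0.175), Fpr2 (0.609 ± 0.0330) and Ccr2 (0.577 ± 0.0439), of which Fpr2 and Ccr2 overlapped. Alone, Ccrl2 came before Ccr1 (1.69 ± 0.196 and 1.30 ± 0.185 FPKM), with ranges that only just separated, and Ccr2 followed at 0.456 ± 0.125 FPKM, ahead of Cxcr4 (0.173 ± 0.0494) and Fpr2 (0.0774 ± 0.0484), which overlapped. Cmklr1, Fpr1 and Ackr3 came last in both groups, overlapping with their neighbours in the order except for Cmklr1 against Ccr2 in coculture.

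The mix of receptor mRNA shifted accordingly. Cx3cr1 made up 84.0%, 84.0% and 82.5% of the summed FPKM of the 9 receptors in cocultured replicates A, B and C and 94.1%, 93.4% and 94.4% in the lone ones. The other 8 receptors together came to 9.15, 9.03 and 10.1 FPKM in coculture and 3.58, 3.89 and 3.66 FPKM alone, without overlap. Ccr1 alone took 7.41%, 8.37% and 7.65% of the sum in coculture and 1.80%, 2.34% and 2.22% in lone cells. These shares are descriptions, and 3 libraries against 3 allow no exact p under 0.1.

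**Figure D3:**
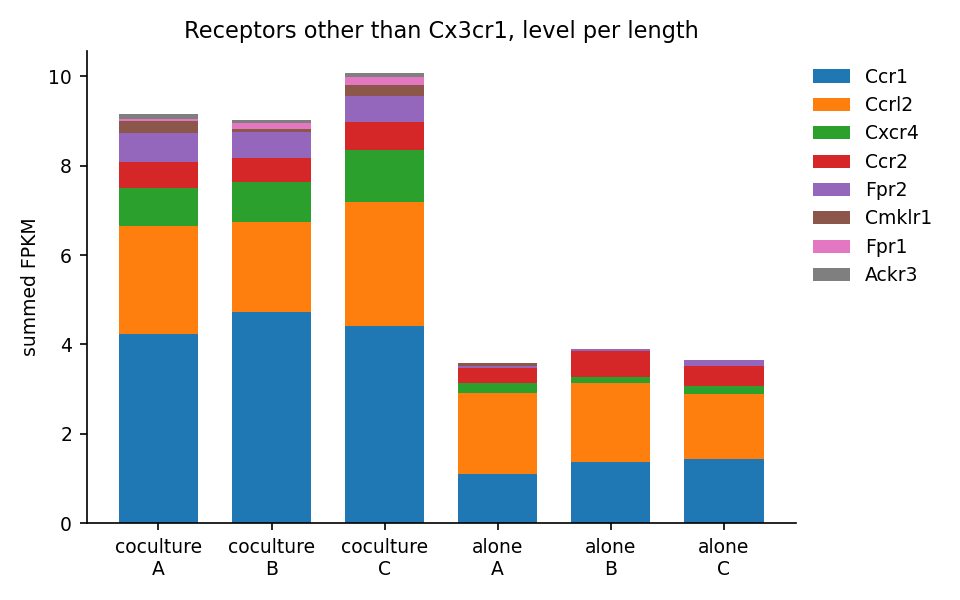
Summed FPKM of the 8 receptors other than Cx3cr1 in each library, stacked by gene, with the 3 cocultured libraries left of the 3 lone ones. The stacks reach 9.03 to 10.1 FPKM in coculture and 3.58 to 3.89 FPKM alone, and Ccr1 forms the largest part of each cocultured stack.

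Genes that moved most like the best measured receptors were found by the root mean square difference of centred log2 CPM over the 6 libraries. Cox7a2l, Ncapd3 and Neil3 came closest to Cx3cr1, with differences of 0.0197, 0.0206 and 0.0218. Phlda1, Serpinb9 and Acap1 came closest to Ccr1, with differences of 0.0913, 0.0942 and 0.110. Serpinb9, a serine protease inhibitor, averaged 23.9 ± 1.82 CPM in coculture and 7.30 ± 0.914 CPM alone.

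The other chemoattractant receptors behaved in a mixed way. Of 32 listed, 9 were tested, all of which met the count minimum alone, and 4 were higher and 2 lower. Of all genes at that minimum 16.8% were higher and 17.1% lower, so the count of falls lies near the background. Of the 32, 10 had no count in any library, among them Ccr7, a receptor for lymph node homing, and Cxcr2, a neutrophil chemokine receptor. Receptors for the anaphylatoxins of complement rose: C5ar1 averaged 175 ± 7.22 CPM in coculture and 79.3 ± 3.71 CPM alone (2.21-fold, edgeR adjusted p = 1.45e-15). C3ar1 averaged 109 ± 7.97 CPM in coculture and 41.6 ± 1.48 CPM alone (2.62-fold, edgeR adjusted p = 1.22e-15). The decoy-like C5ar2 rose 3.41-fold to 3.19 ± 0.620 CPM, and S1pr1, a receptor for sphingosine 1-phosphate, 2.45-fold to 4.35 ± 0.688 CPM. The members that fell were Ccr10, a skin-homing receptor (2.91 ± 0.293 CPM in coculture and 4.45 ± 1.26 CPM alone, edgeR adjusted p = 0.0431), and Gpr183, an oxysterol receptor (47.0 ± 3.75 and 54.6 ± 1.31 CPM, edgeR adjusted p = 0.0125). The groups of Ccr10 overlapped, because lone replicate B lay within the cocultured values, and those of Gpr183 did not. The count of falls was 1 without cocultured replicate B, lone replicate A or lone replicate C, and 0 without cocultured replicate C. Ptafr, the receptor for platelet-activating factor, and Cxcr3 did not pass (edgeR adjusted p = 0.144 and 0.417).

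Of 18 listed ligands of the 9 receptors, 14 were tested and 12 rose, and the 2 that did not pass were Mif and Ccl5, where 21.7% of all genes tested rose. Of the 14, 10 met the count minimum alone and 8 of these rose, with a median log2 change of 0.49, where 16.8% of all genes at that minimum rose. Ligands of CCR2 were among the largest rises: Ccl12 averaged 2.40 ± 0.614 CPM in coculture and 0.0784 ± 0.0679 CPM alone, Ccl7 averaged 10.1 ± 1.30 CPM in coculture and 0.634 ± 0.0741 CPM alone, and Ccl2 rose 4.86-fold to 221 ± 15.2 CPM (edgeR adjusted p = 6.29e-19). Ccl7 and Ccl12 passed the filter only through coculture. Ccl7 is a ligand of CCR1 as well, and Ccl3 and Ccl9, abundant ligands of CCR1, rose 1.32-fold and 1.26-fold to 273 ± 10.5 and 445 ± 20.7 CPM. Adm, the adrenomedullin peptide that ACKR3 scavenges, rose 9.63-fold to 12.8 ± 1.67 CPM. For FPR2, Saa3 rose 8.40-fold to 12.0 ± 0.149 CPM, and Anxa1 averaged 241 ± 3.29 CPM in coculture and 208 ± 18.8 CPM alone (edgeR adjusted p = 0.00194).

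Some of the other ligands were scarce at the mRNA level, and Mif was not. Cx3cl1, the only ligand of CX3CR1 on the list, had 12, 12 and 13 counts in coculture and none alone, at least 12.8-fold higher and with its direction fixed by the filter. Cxcl12 had no count in any library, and Rarres2, which encodes chemerin, had 0 counts in coculture and 2 alone. Mif, which also binds CXCR4, averaged 632 ± 7.32 CPM in coculture and 646 ± 15.1 CPM alone (edgeR adjusted p = 0.564). Renal and epithelial transcripts stand beside the ligand rises as they do beside the receptors, and their part was not tested.

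Of 28 tested signal transducers downstream of the receptors, 4 were higher and 9 lower, with a median log2 change of -0.04. All 28 met the count minimum alone, and of all genes at that minimum 16.8% were higher and 17.1% lower. Without cocultured replicate C, or without lone replicate C, 2 were higher. Regulators of G protein signalling, which shorten the receptor signal, held the largest changes. Rgs1 averaged 55.4 ± 12.3 CPM in coculture and 94.5 ± 11.8 CPM alone, and Rgs2 averaged 90.0 ± 9.30 CPM in coculture and 141 ± 14.2 CPM alone (log2 -0.78 and -0.65, edgeR adjusted p = 8.37e-07 and 2.55e-08). Rgs16 rose 1.72-fold to 3.15 ± 0.156 CPM and Rgs18 rose 1.49-fold to 5.06 ± 0.777 CPM. The G protein subunits Gnai2 and Gnb1, at 710 ± 3.04 and 523 ± 4.80 CPM in coculture and 705 ± 32.9 and 494 ± 20.9 CPM alone, did not pass (edgeR adjusted p = 0.853 and 0.104).

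**Figure D4:**
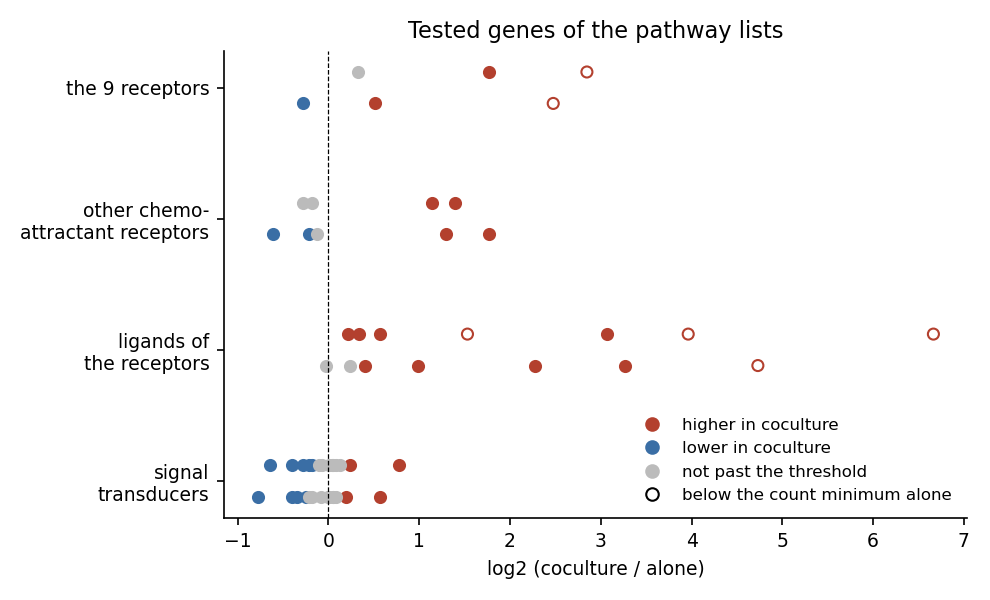
Log2 change in coculture over alone of each tested gene in the 4 lists, 1 point per gene, coloured by the edgeR call, with open points for genes under the count minimum in lone cells. The ligands lie almost wholly to the right of 0, and the signal transducers lie close to it. The rightmost ligand, Cx3cl1, had no lone count, and its plotted position depends on the prior count of the fit.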

How the data were processed

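Poly-A RNA was sequenced from 6 libraries, 3 per group. Per the submitters' processing notes the build was mm10, and the tools, listed with no role, included edgeR 3.22.5, DESeq2 1.20.0, HISAT2 2.0.5 and featureCounts 1.5.0-p3. The sources used here do not give a strand setting. The authors deposited raw counts per gene and FPKM values, per the file headers and names. FPKM equalled the counts scaled to gene length and library total times 0.996 to 1.00 per library. Every pair of replicates differed by more than sampling noise (chi-square per degree of freedom 3.08 to 4.77).

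The test was the edgeR 4.0.16 quasi-likelihood test (R 4.3.3) of coculture over alone on all genes that passed filterByExpr, with TMM scaling and Benjamini-Hochberg adjustment over 12972 genes. Each SE was obtained from the log2 change and its F statistic. CPM uses TMM-scaled library sizes. At this depth a group without counts could still hold up to 3, equal to 0.0639 CPM in coculture and 0.0618 CPM alone. The procedure was tested on simulated data. Alternatives used DESeq2 1.42.0, limma 3.58.1, other scalings, filters, FPKM scales and a replicate block. Replicate letters did not pair the libraries.

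The receptors, lists and tests were chosen with earlier results of these data known. Named were all receptors, and from each list up to 4 called genes of largest change with at least 1 CPM and 2 abundant uncalled ones. Ccr10, Gpr183, Ccl2, Ccl3, Ccl9, Anxa1, Cx3cl1, Cxcl12, Rarres2, Adgre1, Csf1r, the chromosomal neighbours and listed genes without counts were named after their values were seen. Coding identity and shared 50-base stretches came from GENCODE M21, and promoter windows from RefSeq. Protein sequences were not used here. One gene of the lists is not reported here.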

Additional observations from a re-analysis of the deposited data

How the results depend on the processing

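The counts of called genes were recomputed under 17 alternatives. Of 136 such values 121 lay within 1.5 times the main count, and of 96 changes of single receptors 91 kept their direction and call. The other 5 were losses of the Ccrl2 call. None of the 96 turned its sign. Receptors called higher numbered 2 among genes with at least 1 CPM alone and 1 among genes averaging 1 FPKM or more, where Cxcr4 and Fpr2 were not in the fit (Ccrl2 adjusted p = 0.0515 by limma in that fit), and 6 without a filter. Falls among the other chemoattractant receptors numbered 1, not 2, among genes with at least 1 CPM alone, with the replicate block, in the DESeq2 Wald test, in limma-voom and in all 3 FPKM fits, and 0 to 2 with libraries left out. Rises among signal transducers numbered 2 to 4 with libraries left out. The cause of these differences was not tested, apart from the smaller sets of genes or libraries. Deviations of same-letter libraries correlated at 0.00144, 0.0204 and 0.0347 across genes, under 0.1, so the letters were not taken as pairs. With the replicate block, 4 receptors were higher and 1 lower, and the Cx3cr1 change was -0.28. Depth limits Ackr3, Fpr1 and Cmklr1, which had 14, 8 and 30 counts over the cocultured libraries and 0, 0 and 3 over the lone ones.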

Other observations

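The share of counts from mitochondrial genes was 1.41%, 1.34% and 1.41% in cocultured replicates A, B and C and 1.55%, 1.64% and 1.75% in lone ones, without overlap. Genes with at least 1 count numbered 18516 to 19171 per cocultured library and 16846 to 17209 per lone library. Csf3r, the granulocyte colony-stimulating factor receptor on the neutrophil list, was the one member of that list that was tested and was lower in coculture (3.32 ± 0.881 CPM in coculture and 6.15 ± 1.32 CPM alone, edgeR adjusted p = 0.00207).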
